A study of Sus scrofa with 36 samples.

Results

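The circRNAs described here are those found in nearly every library of neonatal pig heart. They were chosen by joining the 3 deposited count files on the circRNA's coordinates and strand, setting an absent entry to 0, leaving out chromosomes X and Y, and keeping each circRNA with at least 1 back-spliced read in at least 28 of the 36 libraries. This gave 904 of 46562 autosomal circRNAs, or 1.94%, and 19 further circRNAs on X or Y met the same count but were left out. How often these circRNAs were seen, how high they were and what share of reads they took follow from this rule, so those values are given as a description and carry no test.

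Hearts came from domestic Yorkshire pigs of both sexes, with no genetic change or treatment, at postnatal day 1 (P1), day 3 (P3), day 7 (P7) and day 28 (P28). The first file (nv1) holds 3 pigs at each age sequenced by Novogene after linear RNA had been digested with RNase R. The second (nv2) holds total RNA libraries of new tissue samples from the same 12 pigs, also by Novogene, and the third (cd) holds total RNA libraries of 12 other pigs by CD Genomics, so that nv1 and nv2 are not independent of each other while cd is independent of both. Each value is a count of reads across the back-splice junction, and a level is given as CPM, the count scaled to 1000000 back-spliced reads of that library, with no division by length because only the junction is counted.

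A circRNA forms when the spliceosome joins the end of a downstream exon back to the start of an upstream exon, which closes the RNA into a loop without free ends. RNase R degrades linear RNA from its 3′ end and leaves most loops intact, which is why it is used to enrich them. The span of a circRNA is the genomic distance between its joined ends, introns included, and is therefore not the length of the RNA. CircRNAs are stable and can build up in tissues whose cells divide little, such as heart and brain. Coordinates are those of the files (Sscrofa10.2), and host genes were not assigned because the files do not name them.

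The libraries held 1604 to 65478 back-spliced reads in nv1, 10819 to 17027 in nv2 and, for cd, 8636 to 49042. One nv1 library at P28 stood apart, with 1604 reads and 197 of the 904 circRNAs detected, while the other 35 libraries each held 641 to 902 of them. It was left out of every test, and the summed counts of its pig were left out of tests over pigs. A further 5 cd libraries, 2 at P3, 1 at P7 and 2 at P28, had few circRNAs with a single count (6.50% to 17.1%, against 25.7% to 44.1% in the other 7 cd libraries). In the cd gene table, the 5 measured heart muscle markers (ACTC1, TPM1, TNNI3, MYBPC3 and MYL3, of 12 listed) together reached 60930 to 79630 CPM of gene counts in every library, and no listed skeletal muscle or red cell gene was measured. The samples were whole tissue, so fewer cells of a type and less RNA per cell cannot be told apart.

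Detection fell off steeply across the circRNAs. Of all autosomal circRNAs, 23275 were seen in a single library, while 68 were seen in all 36 and 145 in 35. The median of the 904 was 32 libraries. In the pooled reads, the 68 took 12.5% and the 145 took 15.1%. Setting aside the library with few reads, 182 of the 904 were present in all of the other 35 libraries and 114 of those were at 0 in that library alone. At the edge of the rule, 114 circRNAs were seen in exactly 28 libraries, with a median total of 165.5 reads and mean levels of 91.5 to 324 CPM. Just outside it, 106 were seen in 27 libraries, with a median total of 132 reads and mean levels of 91.3 to 821 CPM, so the edge did not separate circRNAs by level. A rule of 24 libraries would have kept 1392 and a rule of 32 would have kept 501.

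**Figure D1:**
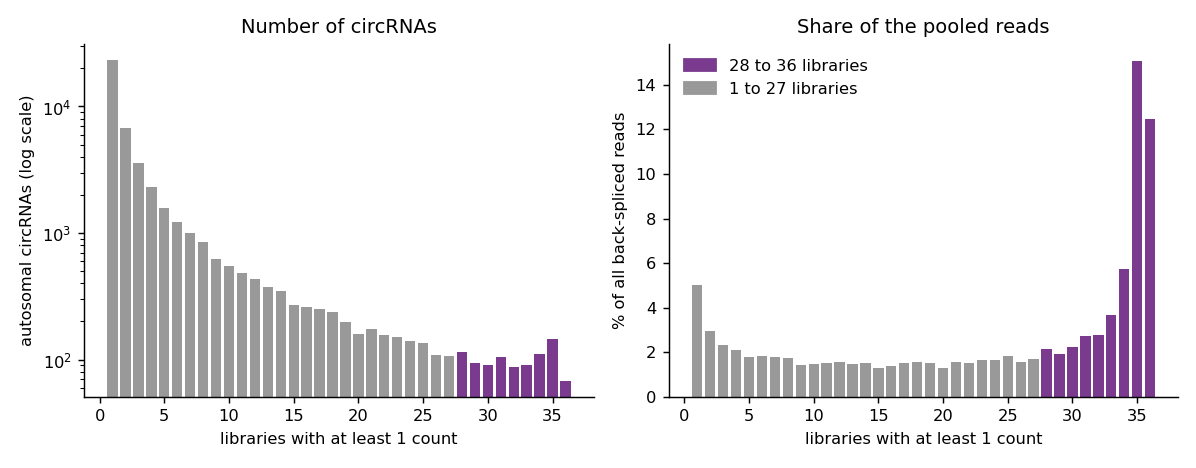
Left, number of autosomal circRNAs (log scale) by the number of libraries, of 36, in which each had at least 1 back-spliced read, and right, the percent of the pooled back-spliced reads that each class held, with the 904 circRNAs in 28 to 36 libraries in purple. Most circRNAs lie at the left, 23275 of them in 1 library, while the 68 in all 36 libraries held 12.5% of the pooled reads and the 145 in 35 held 15.1%.

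Though few, these circRNAs held a steady share of the back-spliced reads. Their share was between 45.6% and 51.1% in each of the 35 libraries and 36.97% in the library with few reads. In nv1 the mean share was 49.8% ± 0.163 (SD, n = 3) at P1, 49.3% ± 0.470 at P3, 48.5% ± 0.655 at P7 and 50.5% ± 0.0336 (n = 2) at P28. In nv2 it was 47.2% ± 0.142, 47.0% ± 0.372, 47.0% ± 0.604 and 48.1% ± 0.360 (SD, n = 3 each) in the order of age. In cd it was 48.9% ± 0.554, 49.4% ± 1.44, 46.7% ± 1.06 and 49.4% ± 0.303 (SD, n = 3 each). In nv2 each P28 library lay above each library of the other ages, and in nv1 the same held only with the library of few reads left out, while in cd the P1, P3 and P28 values overlapped. The means of a file differed between ages by a few percentage points at most, and the SD between pigs was widest in cd at P1, P3 and P7 and in nv2 at P28.

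**Figure D2:**
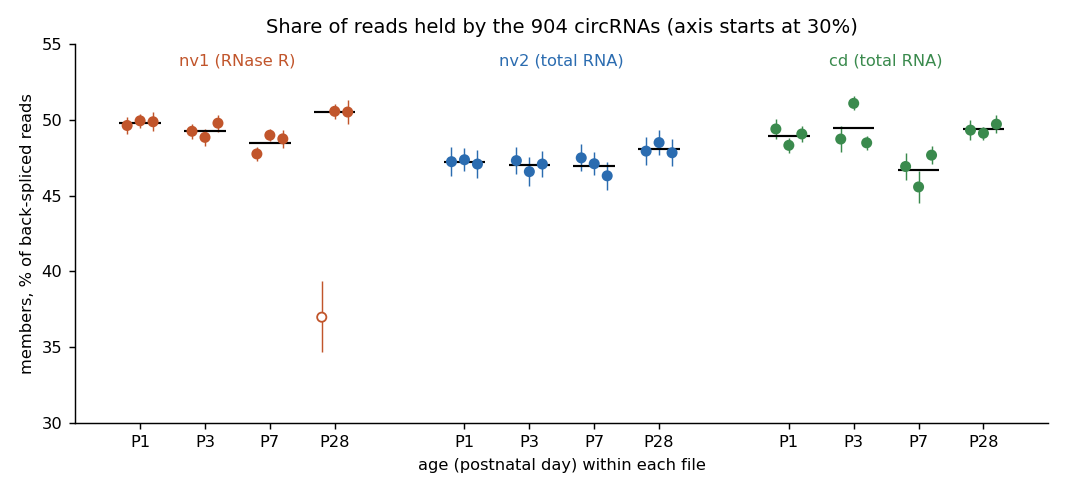
Share of back-spliced reads (percent, axis from 30 to 55) held by the 904 circRNAs in each library, by age and file, with Wilson 95% intervals for counting error as bars. The open point is the nv1 library with 1604 reads at 36.97%, and the other 35 libraries lie between 45.6% and 51.1%.

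The reads were concentrated within the group as well. Mean levels ran from 91.5 to 12188 CPM, with a median of 302.9 CPM, and 143 of the 904 held 50% of the group's reads. The highest alone held 1.22% of all back-spliced reads, the top 10 held 4.998% and the top 100 held 20.3%. Rank by detection and rank by level overlapped widely, since 794 of the 904 circRNAs with the highest mean level belonged to the group, and the highest circRNA outside it had a mean of 826 CPM. Across the 904, the log2 mean levels of nv1 and nv2 had a Pearson correlation of 0.672, those of nv1 and cd 0.773 and those of nv2 and cd 0.686 (n = 904 circRNAs, which are not independent replicates).

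The highest was chr2:61866061-61872040 on the plus strand, with a span of 5979 bases. It ranked first or tied for first in 30 of the 35 libraries and was among the top 10 in all 35, at 0.621% to 2.03% of reads. In the library with few reads it was at 0 of 1604 reads, which allows a share of up to 0.187%, a limit that covers counting error only. That library instead had 44 reads (27431 CPM) of chr14:57846854-57848109, a circRNA of 1255 bases that was first in 3 other libraries and in the top 10 of 26. The other first places went to chr13:35647657-35658848, first in 2 libraries, and chr5:89608595-89609429, first in 1. The remaining circRNAs of the top 10 by mean share were chr4:129774516-129792899, chr1:157816757-157823318, chr11:266571-267124, chr1:270602783-270619968, chr6:92170080-92179625, chr14:44169276-44175988 and chr1:62359383-62362228, with mean levels of 3271 to 4236 CPM.

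The 904 covered a wide range of spans with few at the extremes. The median span was 9100 bases (quartiles 3818.5 and 18770.5), against 8640.5 for the other autosomal circRNAs. Spans under 500 bases made up 1.66% of the group (15 circRNAs) against 5.11%, and spans over 50000 bases made up 3.87% (35 circRNAs) against 6.19%. The circles seen in 16 to 27 libraries were close to the group, with 2.22% under 500 bases and 4.2% over 50000. Circles seen in 1 library had the largest shares at both ends, 7.32% under 500 bases and 6.88% over 50000, and none of the 68 seen in all 36 libraries lay at either end. The shortest were chr12:5253881-5254175 at 294 bases, chr6:39471798-39472185 at 387 and chr4:116017069-116017460 at 391, with mean levels of 306, 319 and 133 CPM. At the other end were chr6:32224764-32383981 at 159217 bases, chr6:32239125-32383981 at 144856 and chr4:34502002-34641574 at 139572, with mean levels of 452, 368 and 169 CPM. Strand was nearly even, with 445 on the plus and 459 on the minus strand.

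A shared splice site was common. Of the 904, 878 (97.1%) shared their start or their end with at least 1 other autosomal circRNA, against 83.3% of the others, with a median of 5 such partners. A circRNA and those sharing its start or end are taken as its family, and one without a partner holds all reads of its own. Over all 904, such circRNAs included, the median was 66.9% of the family's total and 607 held over 50%. These shares follow in part from the rule, which favours high circRNAs. Overlapping spans on the same strand merged the 904 into 669 loci, of which 520 held 1 and 149 held 2 or more. The richest locus, chr14:57705293-57781734 on the minus strand, held 7 of them among 74 circRNAs. The 7 took 0.374% of all back-spliced reads and the 74 together took 0.483%. Further along the same strand lay chr14:57829154-57894112, whose 6 held 0.829% and included the circRNA that led in 3 libraries. A locus on chr15:124628984-124720160 also held 6, with 0.640% of reads. The circles of a locus were grouped by overlapping spans alone, and exons were not assigned. Their counts were therefore not taken as independent measurements.

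**Figure D3:**
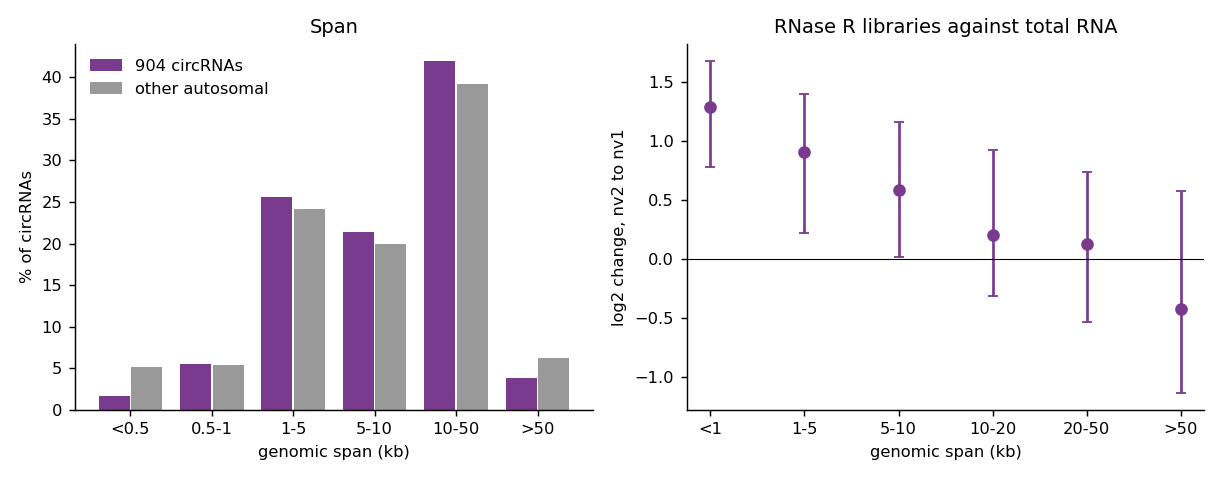
Left, percent of the 904 circRNAs (purple) and of the other autosomal circRNAs (grey) in each class of genomic span (kb), with the purple bars lower at both ends. Right, log2 change of the 904 from nv2 (total RNA) to nv1 (RNase R) by span class, as median with quartiles, which falls from 1.29 in circles under 1000 bases to -0.43 in those over 50000.

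The age comparisons asked how these circRNAs differed between the day after birth, when the pig heart can still regenerate, and later days, when it loses this ability. The main fit took each pig as 1 sample (6 at P1, P3 and P7 and 5 at P28), with the nv1 and nv2 counts of a Novogene pig summed, and company as a term. It used edgeR's quasi-likelihood test on 6604 circRNAs, which included all 904. A circRNA was called at an unadjusted p of 0.05 or less with an absolute log2 fold change over 0.5, and the count at a Benjamini-Hochberg adjusted p under 0.05 over all tested is given beside it. All comparisons share the P1 pigs. The samples of a group are different pigs, so the p-values measure the spread between pigs, sampling and sequencing included.

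Few of the 904 changed with age in the pigs of both companies together. From P1 to P28, 64 were called, or 7.08%, where 12.1% of all circRNAs tested were called. Of these, 19 were higher (background 3.33%) and 45 lower (background 8.78%). The median log2 change of the 904 was -0.23, against -0.32 over all tested, and with scaling by total reads alone (medians -0.04 and -0.17) the split turned to 33 higher and 25 lower. For this and the next splits with total reads, calls over all tested were not counted. From P1 to P3, 56 were called, or 6.19%, where 9.74% of all tested were called, with 7 higher (background 2.53%) and 49 lower (background 7.21%), or 15 and 26 with total reads. From P1 to P7, 35 were called, or 3.87%, against a background of 5.78%, with 5 higher (background 2.77%) and 30 lower (background 3.01%), or 14 and 16 with total reads. P1 against the later ages together gave 61, or 6.75%, against 11.6%, with 5 higher (background 2%) and 56 lower (background 9.63%), or 13 and 21 with total reads. In these 4 comparisons over pigs of both companies the share called among the 904 was below that of all circRNAs tested, while in the Novogene pigs alone and in cd alone it was above it at P3, P7 and P28, as given with those fits. For the later ages together it was 12.4% in the Novogene pigs alone, against 6.89% of the other circRNAs tested. In cd alone it was below, at 6.08% against 10.4% of the others. Over pigs of both companies, the 68 members seen in all libraries had 13 calls at P3 (19.1%), 10 at P7 (14.7%), 12 at P28 (17.6%) and 13 for the later ages together (19.1%), each above the backgrounds of those 4 comparisons. The order of members and background thus turned with the pigs and the members taken, and whether they differ was not tested. The biological coefficient of variation in this fit had a median of 71.4% for the 904 and 142% for the others. After adjustment 2 of the 904 passed from P1 to P28, where 0.0606% of all tested passed. In the other 3 comparisons edgeR passed 0 of them (backgrounds 0%, 0% and 0.0303%). An unadjusted p of 0.05 or less was reached by 57 (6.31%), 36 (3.98%) and 67 (7.41%) of the 904 in edgeR's test. Over all tested the shares were higher, at 9.75%, 5.80% and 11.7%. DESeq2 gave 78, 57 and 85 of the 904 at that limit, and its share over all tested was not counted.

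The one that passed with a fall was the highest circRNA, chr2:61866061-61872040. Its lowest, median and highest levels over pigs were 10229, 11798 and 13648 CPM at P1, 11196, 14297 and 17391 at P3, and 9264, 13558 and 15117 at P7. At P28 they were 6473, 7642 and 9961 CPM, so every P28 pig lay below every P1 pig, while P3 and P7 overlapped P1. The log2 change from P1 to P28 was -0.75 ± 0.118 (SE), with an adjusted p of 1.45e-06 in edgeR's test. The same order held in each file. In nv1 the P28 libraries were at 6206 and 8709 CPM against 9216 to 12624 at P1, in nv2 at 7195 to 10203 against 12157 to 13402, and in cd at 7524 to 9961 against 11388 to 13648. It was the only circRNA of the group whose levels differed among the 4 ages at an adjusted p under 0.05 in all 3 files separately (0.000967, 9.58e-06 and 0.00600 in edgeR's F test). Under the 34 alternatives tried, its log2 change over pigs lay between -0.87 and -0.54 and it was called in each, with adjusted p-values from 5.64e-09 to 0.829, the last without a filter on low counts. Its F test in cd lost the adjusted threshold in 9 of 18 alternatives.

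The one that passed with a rise was chr8:4258669-4260865 on the plus strand, with a span of 2196 bases. It shares an end with 1 other circRNA and held 99.7% of the reads of that pair. Over pigs its lowest, median and highest levels were 0, 310.0 and 1137 CPM at P1, 369, 796 and 1167 at P3, 398, 908 and 1075 at P7, and 897, 1914 and 4154 at P28. The P28 range overlapped the top of the P1 range. The log2 change was 2.65 ± 0.464 (SE), with an adjusted p of 3.67e-05 in edgeR's test. In cd the 3 P1 pigs were at 0, 99.9 and 227 CPM and the 3 P28 pigs at 897, 3074 and 4154, a log2 change of 4.23, while in the Novogene pigs it was 1.205 (adjusted p = 0.112, edgeR). The difference between the companies was not past the threshold (adjusted p = 0.667, edgeR), and over the alternatives the adjusted p of the change ranged from 2.89e-06 to 0.112.

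Among the 904, 3 were called lower from P1 to P28 in all 3 files: chr2:61866061-61872040, chr8:146890663-146892955 and chr4:129789460-129792899. They were 0.343% of the 874 members tested in all 3, where 5 of all 1695 circRNAs tested there (0.295%) were called in 1 direction in all 3. The second, on the plus strand with a span of 2292 bases, was at 3389, 3412 and 4278 CPM in nv1 at P1 and at 1746 and 2098 at P28. In nv2 it was at 1317, 1703 and 2311 CPM at P1 and at 654, 669 and 904 at P28, and in cd at 1472, 1897 and 2350.1 against 577, 734 and 1195. No P28 library reached a P1 library in any file. Its log2 change over pigs was -1.33 ± 0.330 (SE), with an adjusted p of 0.0644 in edgeR's test, and -0.99 for all later ages against P1 (adjusted p = 0.073).

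The third, chr4:129789460-129792899 on the minus strand, had a log2 change of -1.03 ± 0.289 (SE, adjusted p = 0.19, edgeR) over pigs. In nv2 its P1 libraries were at 3235, 4039 and 4992 CPM and its P28 libraries at 1627, 1839.9 and 2762, without overlap, but in cd the highest P28 pig (1964) lay above the lowest P1 pig (1223). It shares the end of higher coordinate with chr4:129774516-129792899, a longer circle of 18383 bases that is among the top 10. The level of the longer relative to the shorter was 0.980 in nv1, 2.91 in nv2 and 1.33 in cd, so which of the pair was higher depended on the file. The longer had a log2 change of -0.52 (adjusted p = 0.324, edgeR) from P1 to P28, and its call was lost in 17 of 34 alternatives.

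**Figure D4:**
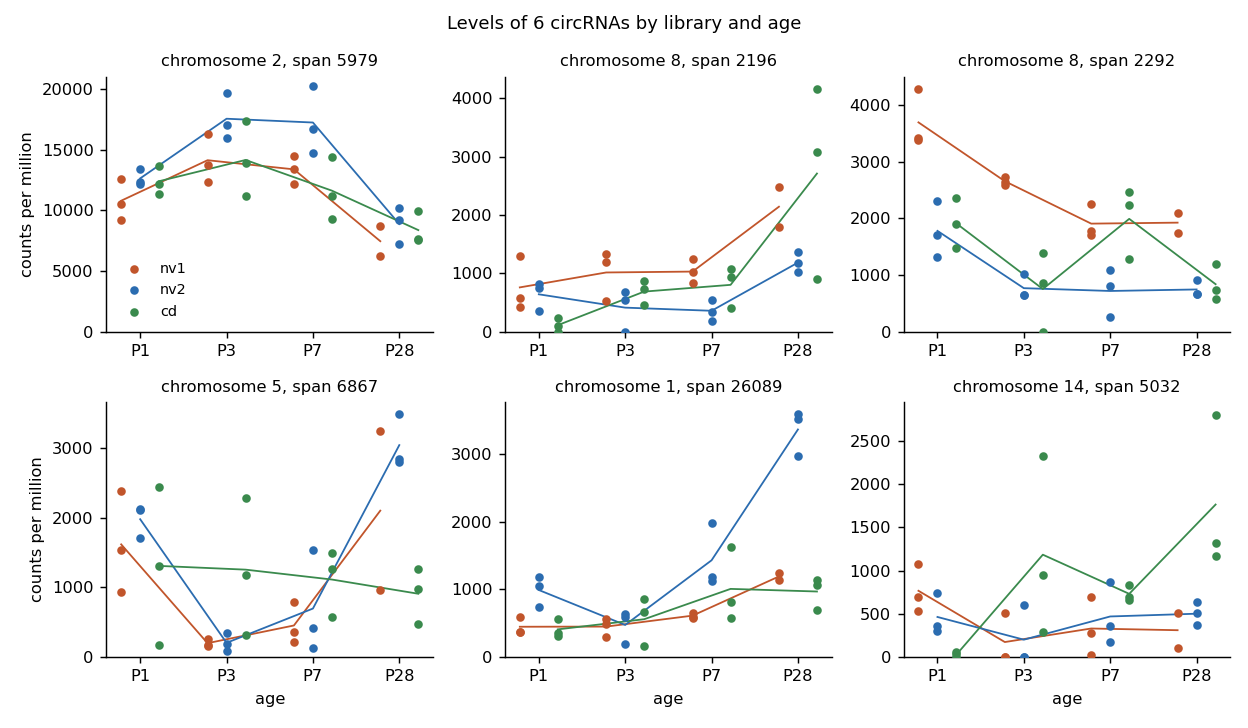
Levels (CPM of back-spliced reads) at P1, P3, P7 and P28 in nv1, nv2 and cd for 6 circRNAs, labelled by chromosome and span, with a point for each library and lines through the means. The nv1 library with few reads is left out. The chr2 circle of 5979 bases is lower at P28 in each file, the chr8 circle of 2196 bases is higher, and the chr14 circle of 5032 bases has means of 26.1 CPM at P1 and 1764 at P28 in cd, 461 and 499 in nv2, and 765 and 308 in nv1.

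Other circRNAs of the top 10, or with the smallest p in a comparison, were called without passing after adjustment. The chr11:266571-267124 circle of 553 bases was at 3171, 4752 and 6003 CPM (lowest, median and highest pig) at P1 and at 2374, 2962 and 4013 at P28, with a log2 change of -0.77 (adjusted p = 0.19, edgeR). At P3 its change was -0.72 (adjusted p = 0.316), which was not called without the 5 cd libraries with few single counts (-0.44). For chr14:44169276-44175988 the pigs were at 2276, 2589 and 4469 CPM at P1 and 2818, 6807 and 7376 at P28, a log2 change of 0.70 (adjusted p = 0.268), which was no longer called in cd alone (0.33) or without the P28 Novogene pig 2. The chr15:36377633-36400720 circle was lower at P7, with pigs at 72.4, 246 and 579 CPM against 169, 927 and 2172 at P1 and a log2 change of -2.15 (adjusted p = 0.0845). For chr5:105210065-105250420 the P7 change of -1.20 (adjusted p = 0.13) came from cd, where the P7 pigs were at 232, 248 and 759.7 CPM and the P1 pigs at 1529, 2322 and 2944, while in the Novogene pigs it was -0.16. In each of these the ranges of the ages compared overlapped over pigs. The other 6 of the top 10 were not called from P1 to P28, with log2 changes from -0.47 to 0.16.

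Cell markers in the cd gene table moved with age too. FBN1, the gene for the matrix protein fibrillin-1 and the only fibroblast marker measured of 5 listed, was at 3233 to 4040 CPM at P1, 1962 to 2767 at P3, 3594 to 4512 at P7 and 916 to 1142 at P28. CSF1R, a receptor of macrophages and the only leukocyte marker measured of 4 listed, was at 93.9 to 135 CPM at P1 and 164 to 217 at P28. The 3 endothelial markers measured of 5 (CDH5, TEK and TIE1) summed to 553 to 857 CPM over all ages. The part of cell composition in the P28 results was not tested.

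Each file was also tested alone for any difference among the ages. In nv1, 108 of the 903 circRNAs tested (12%) differed among the 4 ages at an unadjusted p of 0.05 or less by the F test, where 5.76% of all circRNAs tested did, and 9 passed after adjustment (background 0.369%). In nv2 it was 71 of 875 (8.11%), with a background of 6.47%, and 11 passed after adjustment (background 0.585%). In cd it was 41 of 904 (4.54%), with a background of 4.33%, and 4 passed (background 0.0797%), although leaving out the P3 cd pig 4 raised the 41 to 85 and leaving out the 5 cd libraries with few single counts raised it to 77. The share in cd was near its background. The spread between pigs of 1 age was lowest in nv1 and highest in cd, with a median coefficient of variation over the group of 41.4% in nv1, 62.8% for nv2 and 71.9% for cd, of which counting error alone would give 33.6%, 56.1% and 40.3%. In nv1 the low library mattered: with it kept, the 108 fell to 30.

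Levels kept their order across ages more closely in nv1 than in the other files. The correlation of log2 mean levels between any 2 ages was 0.779 to 0.896 in nv1, 0.616 to 0.711 in nv2 and 0.536 to 0.669 in cd (n = 904 circRNAs). No age held most of the maxima. In nv1 the mean was highest at P1 for 238 circRNAs, at P3 for 195, at P7 for 199 and at P28 for 272, and in nv2 and cd each age held between 209 and 236.

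Among the 18 circRNAs that passed the F test after adjustment in at least 1 file, 5 passed in both nv1 and nv2, which is 55.6% of the 9 in nv1 and 45.5% of the 11 in nv2. Over all circRNAs tested, 20 of 5417 passed in nv1 and 13 of 2224 in nv2. Their overlap was not counted, so the overlap of the 5 is not shown to be particular to the group. The pigs of these files are the same, so the overlap is over 2 tissue samples of each heart. The 5 were chr2:61866061-61872040, chr4:129774516-129792899, chr14:44169276-44175988, chr5:99055436-99062303 and chr9:8935965-8950452. The chr4 circle lost the adjusted threshold in nv1 and in nv2 without the P28 pig 3 (its highest adjusted p over the alternatives was 0.83 in nv1), and the chr14 circle lost it in nv1 without the P28 pig 2 and in nv2 under 11 of 17 alternatives. Of the 18, 10 lay outside the rule by which circRNAs are named here, and those described next were chosen after their values were seen, except chr5:99055436-99062303.

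The clearest age pattern in the Novogene pigs was that of chr5:99055436-99062303 on the minus strand, with a span of 6867 bases. In nv1 it was at 939, 1529 and 2384 CPM at P1, 162, 166 and 259 at P3, 218, 351 and 782 at P7, and 954 and 3251 at P28. In nv2 it was at 1703, 2107 and 2126 CPM at P1, 79.6, 183 and 339.9 at P3, 125, 421 and 1536 at P7, and 2802.9, 2844 and 3489 at P28. Thus every P3 library lay below every P1 and P28 library of its file. The log2 change from P1 to P3 in the Novogene pigs was -3.15, with an adjusted p of 7.64e-15 in edgeR's test. The cd pigs did not show it, with 173, 1302 and 2447 CPM at P1 and 307, 1174 and 2280.2 at P3 and a log2 change of -0.49 (adjusted p = 0.877). Over all pigs the change was -1.61 (adjusted p = 0.316), and the difference between the companies at P3 was not tested.

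A circle of 14487 bases, chr9:8935965-8950452, went the opposite way in the Novogene pigs. In nv1 it was at 165, 284 and 556 CPM at P1, 1052, 1135 and 1395 at P3, 809, 1122 and 1651 at P7, and 215 and 572 at P28. In nv2 the P3 libraries were at 255, 1187 and 1193 CPM and the P7 libraries at 623, 1084 and 1095, against 58.7, 185 and 351 at P1 and 0, 83.6 and 145 at P28. In nv1 the P3 and P7 libraries lay above all others, and in nv2 1 P3 library overlapped P1. The adjusted p of the F test was 0.000239 in nv1 and 0.00883 in nv2, and the cd pigs gave 0.809.

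Another of the 18, chr1:127997792-128023881, was higher at P28 than at P1, and its mean was highest at P28 in nv1 and nv2 and at P7 in cd (1006 CPM at P7 and 967 at P28). In nv2 it was at 739, 1054 and 1175 CPM at P1 and at 2979.9, 3526 and 3596 at P28, with an adjusted p of 3.71e-07 for the 4 ages. The nv1 libraries were at 372, 372 and 591 CPM at P1 and at 1144 and 1236 at P28, and the cd pigs at 303.1, 349.5 and 566 against 692, 1067 and 1142, so P28 lay above P1 without overlap in each file, although nv1 and cd did not pass the F test (adjusted p = 0.664 and 0.718). At the low end, chr14:57783563-57784425 was at 3306, 3339 and 3761 CPM at P1 in nv1 and at 954 and 1209 at P28 (adjusted p = 0.00188, lost without the P1 pig 2), but its nv2 and cd ranges at these ages overlapped. The chr7:20415576-20423283 circle passed in nv1 (adjusted p = 7.19e-07), where the P7 mean was highest, with libraries at 1258, 1420.3 and 1869 CPM. Over the Novogene pigs the highest P1 pig (1491 CPM) lay above the lowest P7 pig (1482 CPM). In cd the P7 mean was lowest, with pigs at 0, 0 and 145 CPM.

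Single pigs could set a value. The chr5:89608595-89609429 circle of 834 bases passed in nv1 (adjusted p = 8.47e-06), and P3 pig 1 was at 12542 CPM there and at 6203 CPM in its nv2 library, while the other P3 pigs were at 3421 and 3665 in nv1 and at 1552.2 and 1989 in nv2. The same pig was thus high in 2 separate tissue samples. High single pigs also occurred at P7. Over pigs, the highest Novogene pig there was at 6793 CPM (median 2751) and the highest cd pig at 7990 CPM (median 2316). Without P3 pig 1 the circle no longer passed in nv1. It shares the end of lower coordinate with chr5:89608595-89610635, a circle of 2040 bases with a mean level of 2983 CPM, which passed in nv2 instead (adjusted p = 0.0226, lost in 5 of 17 alternatives) and had its highest mean at P7 there, at 3488, 4718 and 4879 CPM against 1054, 1703 and 2403 at P1. Its P3 libraries were at 2465, 2549 and 5092 CPM, so 1 of them lay above all P7 libraries. The mean level of the shorter relative to the longer was 1.38 in nv1, 0.702 in nv2 and 0.958 in cd.

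The 2 companies sequenced different pigs, so their changes with age are independent estimates. From P1 to P28, 547 of the 904 circRNAs (60.5%) had the same sign of change in pigs of either company, with a correlation of 0.158 between the log2 changes (n = 904 circRNAs). Over all 3758 circRNAs tested in both, 55.7% moved the same way, with a correlation of 0.0967. From P1 to P3 the correlation was -0.017 and 48% of the 904 had the same sign, and from P1 to P7 it was 0.0286 and 47%. The correlation was thus low at P28 and near 0 at P3 and P7.

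The Novogene pigs alone gave 127 calls (14% of the 904) from P1 to P28, 64 higher and 63 lower, where 6.9% of all tested were called, and 10 passed after adjustment (background 0.306%). At P3 the count was 82 (9.07%), with a background of 5.97%, and at P7 118 (13.1%), with a background of 6.55%. The cd pigs alone gave 37 (4.09%) at P28, 8 higher and 29 lower, where 3.27% were called, and leaving out the P28 cd pig 4 raised this to 71. With total reads the split was 12 and 18, and calls over all tested were not counted at that scale. At P3 cd gave 67 (7.41%), with a background of 5.82%, and at P7 33 (3.65%), with 2.17%. Of the calls made in single files, 22 were shared by nv1 and nv2 in the same direction, 17 higher and 5 lower, and 0 went opposite ways. That was 2.52% of the 874 members tested in both, where 1.79% of all circRNAs tested in both were shared so. Between nv1 and cd, 8 went the same way (0.886%, background 0.481%) and 2 opposite ways (0.221%, background 0.0902%), and between nv2 and cd 4 went the same way (0.457%, background 0.386%) and 0 opposite ways (background 0.0551%). These shared counts rest on 49 higher and 53 lower calls in nv1 (background 6.35% in either direction), 64 calls in nv2 (background 6.34%) and 37 in cd.

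**Figure D5:**
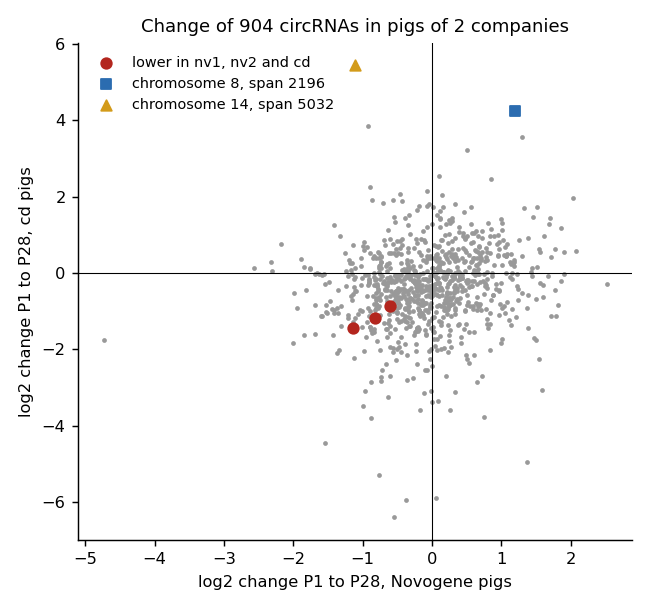
Log2 change from P1 to P28 in the Novogene pigs (horizontal) and in the cd pigs (vertical) for each of the 904 circRNAs. Red points are the 3 called lower in all files, the square is the chr8 circle of 2196 bases and the triangle the chr14 circle of 5032. The points scatter around both axes with a correlation of 0.158, and 547 of 904 lie in the quadrants of equal sign.

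A test of the difference between companies from P1 to P28 passed for 1 of the 904 (0.0303% of all tested passed), chr14:44212455-44217487 on the minus strand, with a span of 5032 bases. In cd it was at 0, 28.3 and 49.9 CPM at P1 (0, 1 and 2 reads), 282, 944 and 2325 at P3, 662, 695 and 832 at P7, and 1162, 1323 and 2807 at P28. In nv1 it was at 525, 696 and 1075 CPM at P1, and at 107 and 509 at P28. In nv2 it was at 294, 351 and 739 CPM at P1 and at 363, 502 and 633 at P28. At P3 it was at 0 in both libraries of the Novogene pigs 2 and 3. Every cd pig at the later ages lay above every cd pig at P1, and the nv2 ranges of P1 and P28 overlapped. The log2 change was 5.43 in cd and -1.11 in the Novogene pigs, each from the fit of those pigs alone, and the difference estimated in 1 fit of all pigs was 6.47 ± 1.29 (SE, adjusted p = 0.0016, edgeR). The call was lost without the P28 Novogene pig 2 or 3, where 0 of the 904 passed, and with nv2 and cd alone.

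RNase R and total RNA libraries of the same pigs were compared in 11 pigs, with pig as a block. Relative to the other circRNAs of a library, 436 of the 904 were called, or 48.2%, where 31% of all 4385 tested were called, and 350 passed after adjustment (background 18%). Of the 436, 346 were higher in nv1 (background 25.3%) and 90 lower (background 5.68%). The median log2 change from nv2 to nv1 was 0.50 for the 904 and 0.74 over all tested. The filter on counts could be met through nv1 only, whose libraries were deeper (median 30468.5 reads, against 11819 in nv2). In fits of single files, 4514 circRNAs outside the group passed the filter in nv1 and 1349 in nv2. Values over all tested may therefore be shifted towards nv1 and are not an even comparison for the 904. With total reads as the scale the medians were 0.04 and 0.34 and the split was 218 higher and 180 lower, so the direction for a circRNA near the middle depends on the scale. Calls over all tested were not counted at that scale. RNase R, library kit, sequencing run and tissue sample cannot be told apart here.

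This change followed span. Circles under 1000 bases had a median log2 change of 1.29, with 49 of 65 called higher in nv1. The median was 0.91 for 1000 to 5000 bases (232 circRNAs), 0.59 for 5000 to 10000 (193), 0.21 for 10000 to 20000 (209) and 0.12 for 20000 to 50000 (170). Over 50000 bases it was -0.43, with 4 of 35 called higher and 11 lower. Calls by span class were not counted for circRNAs outside the group. Across the 904 the correlation of the log2 change with log2 span was -0.365 (n = 904 circRNAs). The other circRNAs tested went from 1.65 under 1000 bases to 0.06 at 20000 to 50000 and 0.29 over 50000, with the same limit from the filter on counts.

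At the ends of this range single circles differed widely between the file types. The largest rise was that of chr15:75475655-75495281, which was at 584 ± 238 CPM (SD, n = 11 pigs) in nv1 and 81.1 ± 50.5 in nv2 and was higher in nv1 in 11 of 11 pigs, with a log2 change of 3.14. Next came chr13:155607359-155618641 at 3.03 and chr3:135358107-135366829 at 2.94. These 3 were near the floor of nv2, at 0 there in 2, 6 and 4 of the 11 pigs, so their fitted changes rest on few reads. The largest fall was that of chr7:31081350-31108955, which was at 80.2 ± 58.5 CPM in nv1 and 1251 ± 498 in nv2 and was higher in nv1 in 0 of 11 pigs, with a log2 change of -3.54. It was followed by chr14:116552527-116579401 at -3.27 and chr16:47892128-47904101 at -2.99. These 3 rest on few reads in nv1, with medians of 2, 1 and 4 reads a library and 0 in 0, 3 and 1 of the 11 pigs. All 6 passed after adjustment, with adjusted p-values from 8.46e-23 to 4.5e-08 in edgeR's test.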

How the data were processed

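The deposited circRNA files hold whole-number counts of reads across each back-splice junction, which the authors made with CIRCexplorer2 from aligned reads, 1 file for each of nv1, nv2 and cd. The submitters' processing notes name STAR 2.7.9a, MultiQC 1.11 and the genome build Sscrofa10.2. Whether the start coordinate counts from 0 or 1 is not given in the sources used here, and coordinates are printed as in the files. The gene counts of the cd pigs, also deposited as raw counts, served only to check the tissue, and the miRNA table was not used. The cd columns carry pig numbers 4 to 6, and each was placed by its age only.

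The 904 circRNAs, the gene lists and the tests were chosen with earlier results of these data known, so no pattern here is independent support for the choice. The 3 files were joined on coordinates and strand. Tests used edgeR 4.0.16 (quasi-likelihood, TMM scaling, R 4.3.3) on every circRNA that had 3 counts or more in 10% or more of the samples fitted, adjusted by Benjamini-Hochberg over all tested, and the rows of the 904 were then read off. The scripts were tested on simulated data. The study excluded 1 Novogene P28 sample without naming it, and the nv1 P28 library with the fewest reads, and its pig in fits over pigs, were left out here. The limits for a call (unadjusted p up to 0.05, log2 change above 0.5 in size) follow the study's methods. Tests over pigs took the sum of both Novogene libraries of a pig and had company as a term. Alternatives were the size factors and the Wald test of DESeq2 1.42.0, total reads as the scale, no filter or at least 10 counts in at least 6 samples, each company alone, total RNA alone, the low library kept, leaving out each pig or library, the replicate number as a block, and the circRNAs in all 36 libraries. An alternative without the 5 cd libraries in which under 20% of circRNAs had 1 count was added after the data were seen.

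The circRNAs named were the 10 with the highest mean share of reads, those with an adjusted p under 0.05 or the smallest p in each comparison over pigs and in the test between companies, those called the same way from P1 to P28 in all 3 files, the 3 shortest and 3 longest, and the 3 largest rises and falls between nv2 and nv1. The paper states that nv1 and nv2 used the same animals, while the sample titles give only a number and a round. Libraries of the same age and number in nv1 and nv2 had a median correlation of 0.116 in their deviations from the age means, with 6 of 11 over 0.1. For other pigs of the age it was -0.0406, with 0 of 22 over 0.1. Deviations from a mean of few pigs offset each other, so the values for other pigs are not an independent comparison. No pair of libraries agreed within sampling noise. Intervals on shares are Wilson 95% intervals and cover counting error only, since the reads carry no molecular identifiers.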

Additional observations from a re-analysis of the deposited data

Results flagged for a closer look

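Over 17 circRNAs named by rule and the share of reads, 72 groups of pigs of 1 age were examined for a pig far from the rest, and 3 had one by Dixon's test. Chance alone would give about 1 in 20 groups. The chr11:266571-267124 circle at P3 was at 4875 CPM in cd pig 4, with the nearest other pig at 3295 CPM. The chr15:36377633-36400720 circle at P3 was at 2763 CPM in cd pig 5, with the nearest other at 901 CPM. The share of reads held by the 904 circRNAs at P3 was 51.08% in the same cd pig 5, with the nearest other pig at 48.99%. This pig's library is among the 5 cd libraries with few single counts. The change of chr14:44212455-44217487 from P1 to P28 differed between the companies by 6.4685 on the log2 scale, higher in cd, by the test of the difference itself.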

How the results depend on the processing

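Over all alternatives, 256 recomputed counts of calls stayed within 1.5 times the reported count and 43 moved further. Of the recomputed values of single circRNAs, 807 kept their direction and side of the threshold, 116 lost their call and 0 changed direction. Requiring an adjusted p under 0.05 left 0 of the 904 at P3, 0 at P7, 2 at P28 and 0 for the later ages together over pigs, 9, 11 and 4 for the F test in nv1, nv2 and cd, and 2, 2 and 3 from P1 to P28 in these files. Keeping only the 68 circRNAs in all libraries gave 13, 10, 12 and 13 over pigs and 20, 9 and 6 from P1 to P28 in the files, fewer in number but larger as a share (14.7% to 19.1% over pigs, 29.4%, 13.2% and 8.82% in the files), above the share of all tested in each. Total reads as the scale gave 34 for the later ages. For this and the refits below, calls over all tested were not counted, except for each company alone. At least 10 counts in at least 6 samples gave 34 at P3, 36 for the later ages, 29 and 22 for the F test and P28 in nv2, 19 and 13 in cd, and 288 between nv1 and nv2, with fewer circRNAs tested. The Wald test of DESeq2 gave 57 at P7 and 99 at P28. Novogene pigs alone gave 118 at P7, 127 at P28 and 112 for the later ages (12.4%, against 6.89% of the other circRNAs tested), and cd pigs alone 37 at P28. Keeping the low nv1 library gave 30 for the F test and 59 from P1 to P28 in nv1. Total RNA alone left 0 of the 904 with a difference between companies. Without the 5 cd libraries, added after the data were seen, the counts were 62 at P7, 3 for the difference between companies and 77 for the F test in cd. Apart from changes of construction, the cause was not tested.

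Leaving out 1 pig or library gave 46 to 77 at P3, 23 to 49 at P7 (23 without P1 cd pig 4), 45 to 88 at P28, 43 to 79 for the later ages, 0 to 2 for the difference between companies (2 without P28 cd pig 4), 74 to 114 and 76 to 99 for the F test and P28 in nv1, 58 to 76 and 58 to 67 in nv2, and 30 to 85 and 25 to 71 in cd. Where this left 1 library in a group, that library was assumed to vary like the others. Numbers shared between ages did not pair the pigs (median correlation 0.0119 in cd, -0.000147 in nv1 and -0.0102 in nv2). The replicate block gave 61 at P3, 35 at P7, 69 at P28 and 73 for the later ages, and within 1.5 times the reported count in each file. Between nv1 and nv2, no replicate block gave 440. The median count of the 904 was 2 to 21 per library in 35 libraries, so changes in their lower part rest on few reads.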
